A study of Homo sapiens with 6 samples.

Results

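The 10 genes described here encode the sensors of endoplasmic reticulum (ER) stress and a set of ER chaperones and folding enzymes, measured by RNA-seq in the established colorectal cancer cell line DLD-1. They were picked by gene symbol in the deposited count tables, where all 10 were found among the 56638 symbols listed, and all 10 had enough reads to be tested among 15242 genes. Both these genes and the lists of related genes read further below were chosen with earlier results of these data known. The cells had been transfected with an siRNA aimed at lncSLCC1, the long non-coding RNA that the tables list as RP11-400N13.2 (3 libraries), or with a control siRNA (3 libraries), and both groups were grown in RPMI-1640 with fetal bovine serum. The labels give neither the siRNA sequences nor the time after transfection, and no agent that provokes ER stress is named. Since the labels do not tie replicates to separate cultures, the spread behind each p-value may be technical only. In bulk RNA, a change in some cells and less RNA in every cell cannot be told apart.

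The ER folds secreted and membrane proteins. When unfolded protein builds up, membrane sensors start the unfolded protein response. IRE1 (gene ERN1) splices the XBP1 messenger RNA so that it encodes an active transcription factor, ATF6 is cut in the Golgi to release a transcription factor, and PERK (gene EIF2AK3) phosphorylates the initiation factor eIF2, which slows translation and favours production of ATF4. The chaperone BiP (gene HSPA5) holds the sensors inactive at rest and is itself a target of ATF6 and XBP1. Gene counts do not separate spliced from unspliced XBP1, nor cut from intact ATF6, so the values below are levels of messenger RNA and not of sensor activity.

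The classical mark of ATF6 and XBP1 target promoters is the ER stress response element, ERSE, in which the NF-Y word CCAAT and the word CCACG are separated by 9 bases. In the shorter ERSE-II the words ATTGG and CCACG are separated by 1 base. Both strands of the RefSeq promoter windows (GRCh38.p14, 250 bases before to 50 after a start) were searched, and all 10 genes had a window. ERSE was present in 0.0769% and ERSE-II in 0.0541% of 35116 windows of that length. The 6 matches below lie in 5 of the 10 genes and are shown because these genes carry the element by which the response is usually read. Each is written on the strand of its gene with 8 bases on either side, and capitals mark the outer words, which run in the reverse orientation in the second HSP90B1 match and in SDF2L1.
HSPA5 ERSE, chr9:125241383-125241417, minus strand: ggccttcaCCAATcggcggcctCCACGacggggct
HSP90B1 ERSE, chr12:103930208-103930242, plus strand: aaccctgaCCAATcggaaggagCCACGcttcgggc
HSP90B1 ERSE, chr12:103930313-103930347, plus strand: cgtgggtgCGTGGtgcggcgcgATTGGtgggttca
XBP1 ERSE, chr22:28800595-28800629, minus strand: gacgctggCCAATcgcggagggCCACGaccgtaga
HERPUD1 ERSE-II, chr16:56932017-56932043, plus strand: ggacgccgATTGGgCCACGttgggaga
SDF2L1 ERSE-II, chr22:21642106-21642132, plus strand: ctcggaagCGTGGaCCAATcaaaaccc

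PDIA4, which encodes the disulfide isomerase ERp72, was the gene whose level differed most, and no window of it matched either element. The 250 bases before its start are shown beside those of HSPA5, with every CCAAT and CCACG word of either strand in capitals. CCAAT was present in 34.6% and CCACG in 38.1% of all windows, and these words also make up the elements above. The missing match says only that these letters were not in these windows.
PDIA4, chr7:149028491-149028740, minus strand: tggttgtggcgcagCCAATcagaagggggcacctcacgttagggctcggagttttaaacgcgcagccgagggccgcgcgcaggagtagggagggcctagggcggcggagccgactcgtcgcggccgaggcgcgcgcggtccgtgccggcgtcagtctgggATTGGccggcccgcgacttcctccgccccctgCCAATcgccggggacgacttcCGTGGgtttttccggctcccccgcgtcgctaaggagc
HSPA5, chr9:125241344-125241593, minus strand: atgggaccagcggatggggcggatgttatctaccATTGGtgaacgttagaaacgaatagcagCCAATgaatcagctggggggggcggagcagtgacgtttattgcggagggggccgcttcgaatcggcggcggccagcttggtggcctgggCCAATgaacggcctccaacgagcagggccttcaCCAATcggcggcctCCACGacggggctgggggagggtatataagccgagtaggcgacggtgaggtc

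The libraries held 12572277 to 15262872 gene reads after lncSLCC1 siRNA and 14873343 to 15568075 with control siRNA. In CPM, gene counts scaled by the library's total gene reads, the targeted RNA had 1.69, 2.69 and 2.15 in replicates 1, 2 and 3 of lncSLCC1 siRNA, against 4.91, 9.19 and 8.98 CPM in control replicates 1, 2 and 3, and was lower by the test (log2 difference -1.88 with an SE of 0.264, edgeR adjusted p = 0.0027). All 10 epithelial colorectal markers looked up, among them EPCAM and CDX2, had reads in every library, and their CPM summed to 6198 to 6493 after lncSLCC1 siRNA and 5881 to 6924 with control siRNA. The 9 markers of blood, endothelial and stromal cells summed to at most 6.76 CPM after lncSLCC1 siRNA and 7.87 CPM with control siRNA. Of these, 3 had reads in every library, and PECAM1 and DCN were at 0 in every library. Control replicate 1 stood apart from the other controls: the chi-square statistic per gene was 17.7 and 31.2 between it and control replicates 2 and 3, 5.97 between those, and 1.87 to 1.99 between lncSLCC1 siRNA libraries. Results are therefore also given without it.

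Of the 10 genes, PDIA4 fell after lncSLCC1 siRNA and 9 did not pass the test (adjusted p under 0.05, edgeR's quasi-likelihood test with Benjamini-Hochberg adjustment over all tested genes). Across all tested genes 13.8% were called in either direction and 7.39% were called lower, so a count of 1 in 10 is close to the background. No gene of the 10 was higher at an unadjusted p under 0.05 by edgeR, or by DESeq2 or limma-voom after adjustment. The median log2 fold change was -0.07 over the 10 genes and 0.01 over all tested genes.

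**Figure D1:**
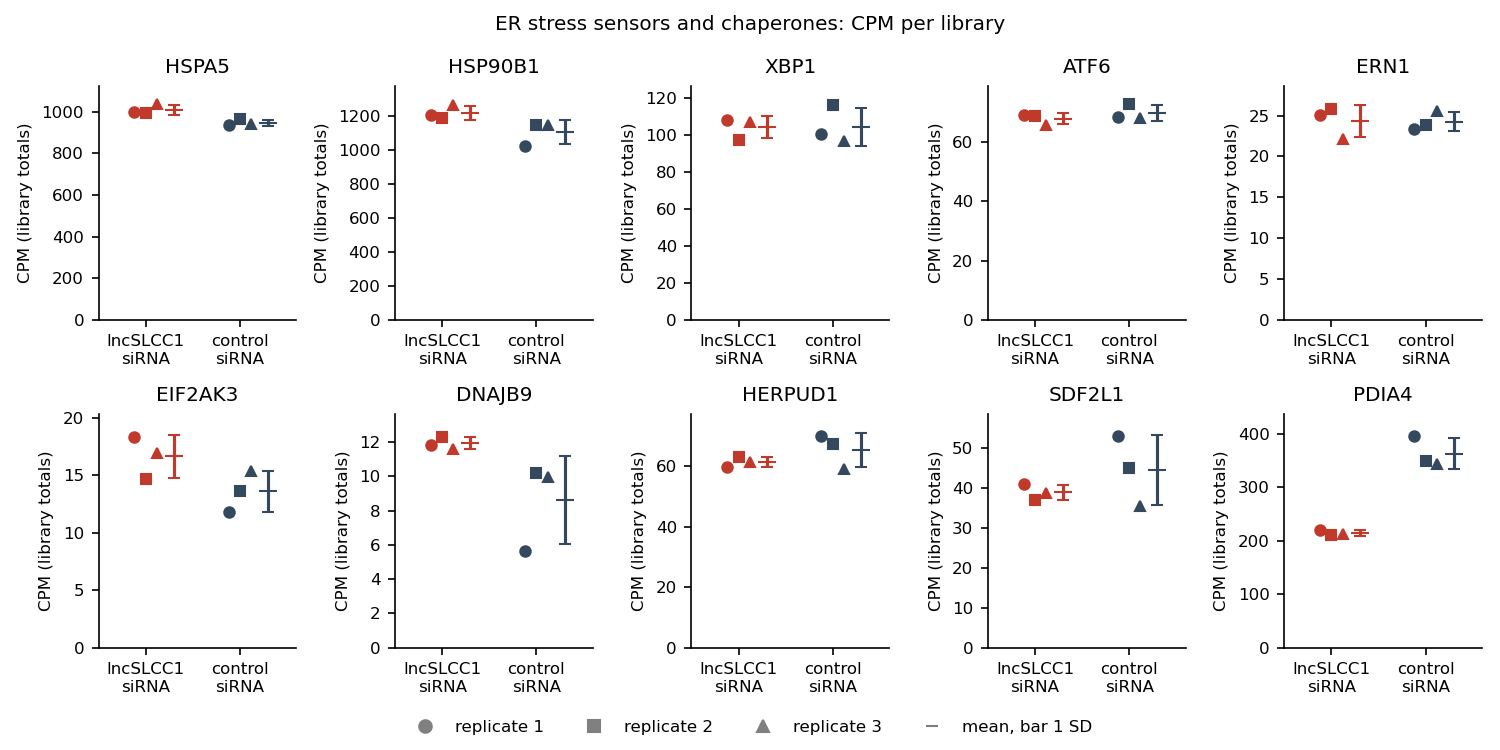
CPM by library totals (vertical axes, each from 0) of the 10 genes in the 3 lncSLCC1 siRNA and 3 control siRNA libraries. Points are libraries, with a shape for each replicate number, and the bars show the mean and 1 SD. The PDIA4 values lie at 211 to 220.4 CPM after lncSLCC1 siRNA, below all controls at 344 to 395 CPM, and in DNAJB9 control replicate 1 lies at 5.65 CPM, below the other 5 libraries.

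PDIA4 forms and rearranges disulfide bonds in proteins entering the secretory pathway. In replicates 1, 2 and 3 of lncSLCC1 siRNA it had 220.4, 211 and 212 CPM, against 395, 348 and 344 CPM in control replicates 1, 2 and 3. All lncSLCC1 siRNA libraries were below all controls, and the gap between the groups, from 220.4 to 344 CPM, was wider than the range within either. The mean was 214 ± 5.29 CPM after lncSLCC1 siRNA and 362 ± 28.6 CPM with control siRNA (SD, n = 3 each), so 59.1% remained by library totals. By edgeR, which scaled the libraries by TMM instead, the log2 fold change was -0.83 with an SE of 0.089 (95% confidence interval -1.03 to -0.63, adjusted p = 0.000603). With library totals in the same test it was -0.76. Each value rests on 2666 to 3251 reads per lncSLCC1 siRNA library and 5320 to 5880 reads per control library.

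A ratio within a library is free of any scaling between libraries. Set against HSPA5 within each library, PDIA4 had 22.1, 21.2 and 20.5 reads per 100 HSPA5 reads after lncSLCC1 siRNA and 42.3, 36.2 and 36.5 with control siRNA. The log2 ratio differed by -0.85 between groups, and an exact two-sided permutation test gave p = 0.1, as low as 3 against 3 libraries can go. Control replicate 1 had the highest PDIA4 level, and without it the log2 fold change was -0.74 (edgeR adjusted p = 3.2e-10). Over the 14 other settings tried, which include each library left out, the log2 fold change ran from -0.88 to -0.74 and the adjusted p was at most 0.0105.

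The 3' untranslated region of PDIA4 holds the word CCTTCT, which had been found over-represented among the genes lower in these same libraries, so its presence is not independent of the result. In GENCODE 29 transcripts (GRCh38) the word was found in 61.6% of 989 genes called lower, 49.9% of 829 called higher and 44.4% of 10082 not called, with median 3' untranslated lengths of 1213, 1846 and 1309.5 bases. Among the 10 genes it was also found in HSP90B1, ATF6, ERN1 and DNAJB9, none of which passed the test. The sites of PDIA4 and HSP90B1 are shown, 1 in a gene that fell and 1 in a gene that was not called, with the word in capitals. What part the word has in the level of PDIA4 was not tested.
PDIA4, chr7:149003519-149003548, minus strand: tttttttttacaCCTTCTaatttctttatt
HSP90B1, chr12:103947747-103947776, plus strand: gccccctaatccCCTTCTcccctgcactgt

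BiP and GRP94 are abundant chaperones of the ER lumen. HSPA5, which encodes BiP, had 999, 993 and 1036 CPM in replicates 1, 2 and 3 of lncSLCC1 siRNA, against 936, 963 and 942 CPM in control replicates 1, 2 and 3. The groups did not overlap by library totals, but did with TMM library sizes, at 966 to 1013 CPM after lncSLCC1 siRNA and 947 to 989 CPM with control siRNA. The log2 fold change was 0.02 (SE 0.070, 95% interval -0.13 to 0.18, edgeR adjusted p = 0.852), so the interval allows folds of 0.912 to 1.13. HSP90B1, which encodes GRP94, the ER member of the HSP90 family, stood at 1204, 1186 and 1263 CPM after lncSLCC1 siRNA, against 1026, 1146 and 1145 CPM with control siRNA. It too overlapped between the groups with TMM library sizes, and its log2 fold change was 0.07 (95% interval -0.09 to 0.23, edgeR adjusted p = 0.54). Its pseudogene copies took few reads, with 3 to 13 per library on HSP90B2P and HSP90B3P at 0.

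The co-chaperone genes had fewer reads than HSPA5 and HSP90B1. DNAJB9, which encodes ERdj4, a DnaJ protein that delivers clients to BiP and restrains IRE1, stood at 11.9, 12.3 and 11.6 CPM after lncSLCC1 siRNA, against 5.65, 10.2 and 9.95 CPM with control siRNA. All lncSLCC1 siRNA libraries were above all controls under both scalings, and control replicate 1 lay far below the other 2 controls. The log2 fold change was 0.41 (SE 0.189, 95% interval -0.02 to 0.83) and did not pass the test (edgeR adjusted p = 0.171). Without control replicate 1 it was 0.20 (adjusted p = 0.239), and these values rest on only 84 to 188 reads per library.

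SDF2L1 encodes a partner of ER DnaJ proteins and is strongly induced by ER stress. It stood at 40.9, 37.02 and 38.7 CPM after lncSLCC1 siRNA, against 53.1, 44.96 and 35.4 CPM with control siRNA, so that control replicate 3 was below all lncSLCC1 siRNA libraries and the other controls above them. Its log2 fold change of -0.27 (95% interval -0.60 to 0.07) did not pass the test (edgeR adjusted p = 0.249). The call turned on 1 library: without control replicate 3 it was -0.42 and passed (adjusted p = 0.0252, where 13.4% of all tested genes were called lower), and without control replicate 1 it was -0.10 (adjusted p = 0.456). It was -0.04 with GC content and length offsets.

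HERPUD1 encodes a membrane protein that helps assemble the ER degradation complex. It stood at 59.8, 63.2 and 61.3 CPM after lncSLCC1 siRNA, against 69.99, 67.3 and 59.2 CPM with control siRNA, and the groups overlapped through control replicate 3. Its log2 fold change was -0.16 (95% interval -0.38 to 0.06, edgeR adjusted p = 0.283), and -0.09 without control replicate 1 (adjusted p = 0.37).

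None of the sensor genes passed the test. ERN1, the gene of IRE1, stood at 25.1, 25.8 and 22.1 CPM after lncSLCC1 siRNA, against 23.3, 23.8 and 25.6 CPM with control siRNA, with groups that overlapped (log2 fold change -0.06, 95% interval -0.29 to 0.17, edgeR adjusted p = 0.715). XBP1, the substrate of IRE1, stood at 108, 97.3 and 107 CPM after lncSLCC1 siRNA, against 100.2, 116 and 96.5 CPM with control siRNA, and also overlapped (log2 fold change -0.07, 95% interval -0.28 to 0.14, edgeR adjusted p = 0.642). The signs of ERN1 and XBP1 were not stable, turning with library totals for ERN1 and with GC content and length offsets for XBP1.

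ATF6 stood at 69.3, 68.7 and 65.7 CPM after lncSLCC1 siRNA, against 68.5, 72.7 and 68.03 CPM with control siRNA. These values overlap, whereas with TMM library sizes the lncSLCC1 siRNA libraries, at 64.2 to 67.8 CPM, lay just below the controls, at 68.4 to 73.6 CPM. The log2 fold change was -0.11 (95% interval -0.29 to 0.07, edgeR adjusted p = 0.39). EIF2AK3, the gene of PERK, stood at 18.4, 14.7 and 16.9 CPM after lncSLCC1 siRNA, against 11.8, 13.6 and 15.4 CPM with control siRNA. Its groups overlapped, and the interval was wide (log2 fold change 0.22, 95% interval -0.07 to 0.52, edgeR adjusted p = 0.273). Groups that did not overlap by library totals were found for HSPA5, HSP90B1, DNAJB9 and PDIA4, or 4 of 10 genes against 39.9% of all tested genes, and with TMM library sizes for ATF6, DNAJB9 and PDIA4, or 3 of 10 against 39.0%.

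**Figure D2:**
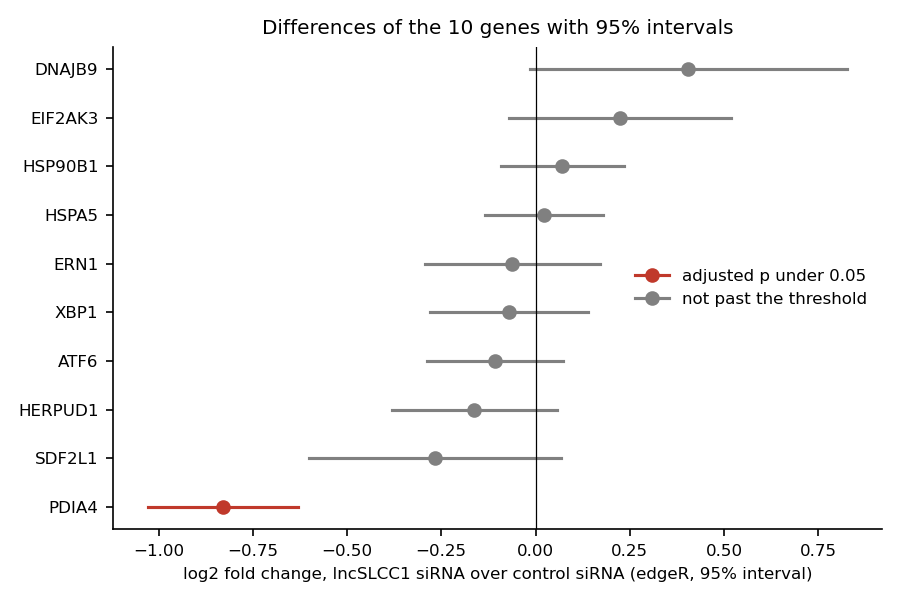
Log2 fold change of each of the 10 genes, lncSLCC1 siRNA over control siRNA (horizontal axis, edgeR), with 95% intervals as lines, ordered by value. PDIA4, at -0.83, is the gene whose interval lies wholly below 0, and the intervals of the other 9 include 0, DNAJB9 only just, from -0.02 to 0.83.

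The order of levels per kilobase of transcript was the same in both groups down to ATF6, although PDIA4 came closer to the genes below it. In RPKM, computed here with the longest GENCODE 29 transcript as length, HSP90B1 averaged 426 after lncSLCC1 siRNA and 387 with control siRNA, and HSPA5 averaged 258 after lncSLCC1 siRNA and 242 with control siRNA. PDIA4 averaged 73.8 after lncSLCC1 siRNA and 125 with control siRNA. After lncSLCC1 siRNA, XBP1, SDF2L1, HERPUD1 and ATF6 followed with means of 56.3, 44.9, 20.9 and 9.06 RPKM, and with control siRNA their means were 56.4, 51.4, 22.2 and 9.31 RPKM, where XBP1 and SDF2L1 overlapped between libraries. Of the rest, DNAJB9, EIF2AK3 and ERN1 lay between 3.09 and 4.39 after lncSLCC1 siRNA and between 2.93 and 3.17 RPKM with control siRNA. In the controls these 3 genes do not differ beyond the spread of DNAJB9 between libraries. These levels assume the longest transcript and would shift where a shorter one is expressed.

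Together the 10 genes took 0.271% to 0.283% of gene reads after lncSLCC1 siRNA and 0.269% to 0.281% with control siRNA. Their sum therefore overlapped between groups, while its make-up differed. HSPA5 and HSP90B1 together made up 79.9% to 81.1% of the summed CPM after lncSLCC1 siRNA and 72.9% to 76.1% with control siRNA. By library totals the sum without PDIA4 did not overlap either. It was 2498 to 2622 CPM after lncSLCC1 siRNA and 2294 to 2458 CPM with control siRNA. PDIA4 made up 7.996%, 7.77% and 7.48% of the summed CPM in replicates 1, 2 and 3 of lncSLCC1 siRNA, against 14.7%, 12.4% and 12.5% in control replicates 1, 2 and 3. The coefficient of variation was larger among controls than among lncSLCC1 siRNA libraries for 8 of the 10 genes, as it was for 76.9% of all tested genes. Control replicate 1 was the lowest of the 6 libraries for HSPA5, HSP90B1, EIF2AK3 and DNAJB9 and the highest for HERPUD1, SDF2L1 and PDIA4.

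**Figure D3:**
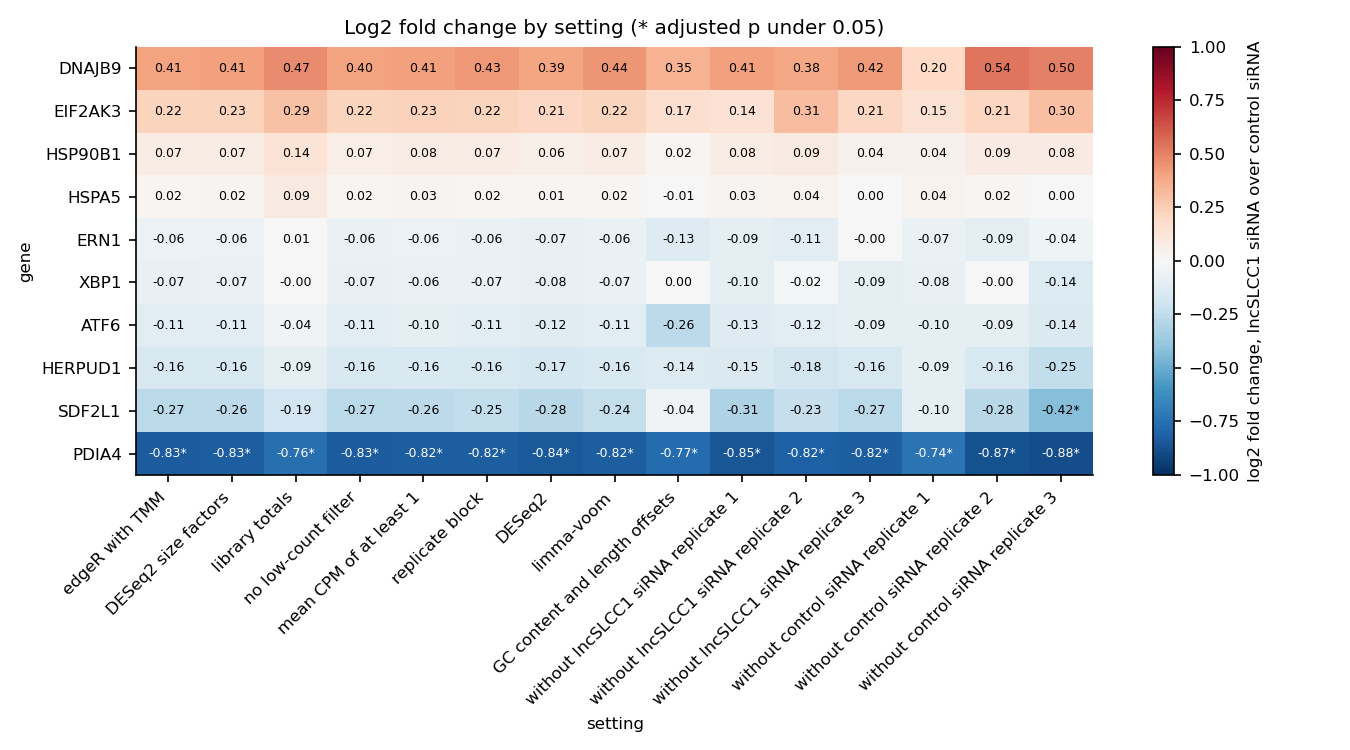
Log2 fold change (colour and printed value, lncSLCC1 siRNA over control siRNA) of each of the 10 genes (rows) under each setting (columns), with an asterisk where the adjusted p is under 0.05. PDIA4 carries the asterisk in every column, and the remaining asterisk is that of SDF2L1 without control replicate 3.

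The wider pathway was read from 6 lists of other genes, holding 129 genes, of which 125 were tested and PDIA2, GPX7, CREB3L1 and STC2 had too few reads. Of the 125, 17 fell and 3 rose, 16.0% in all against 13.8% of all tested genes. Of the other ER lumen chaperones and co-chaperones 1 of 20 tested was called, and the list median log2 fold change was 0.04. The called gene was FKBP10, a collagen-directed prolyl isomerase, which rose to 5.53 ± 0.540 CPM after lncSLCC1 siRNA, against 3.02 ± 0.587 CPM with control siRNA (SD, n = 3 each), a log2 difference of 0.80 with an SE of 0.178 (edgeR, adjusted p = 0.0181). The next smallest p in the list was that of SIL1, the nucleotide exchange factor of BiP, at 24.3 ± 0.942 CPM after lncSLCC1 siRNA and 18.7 ± 0.567 CPM with control siRNA (log2 fold change 0.31, edgeR adjusted p = 0.0695). FKBP10 lost its call without control replicate 2 and without any 1 lncSLCC1 siRNA library (adjusted p of at most 0.0968), and the list then held no call. It held 5 higher without control replicate 1, and 4 higher and 2 lower without control replicate 3. Over all tested genes, calls moved from 984 higher and 1126 lower to 2112 and 2431 in the first of these settings. In the second they moved to 1614 and 2088, and with control replicate 2 left out to 264 and 352. With 1 lncSLCC1 siRNA library left out they were 213 to 272 higher and 244 to 318 lower. List counts with a library left out, here and below, are to be read against these totals.

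Among other disulfide isomerases and oxidases, relatives of PDIA4, 1 of 18 tested was called and the median was -0.02. TXNDC12, a small thioredoxin-like protein of the ER, fell to 41.4 ± 1.51 CPM after lncSLCC1 siRNA, against 62.5 ± 2.75 CPM with control siRNA (SD, n = 3 each), a log2 difference of -0.66 with an SE of 0.088 (edgeR, adjusted p = 0.00203). PRDX4, the ER peroxiredoxin, stood at 68.6 ± 6.03 CPM after lncSLCC1 siRNA and 52.7 ± 5.31 CPM with control siRNA, with a log2 fold change of 0.31 that did not pass (edgeR adjusted p = 0.0684). Without control replicate 1 the list held 3 higher and 3 lower genes, and without control replicate 3 it held 1 higher and 2 lower.

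In the ER-associated degradation list 4 of 25 tested genes fell, with a median of 0.00 over the list. EDEM1, a mannosidase-like protein that hands misfolded glycoproteins to degradation and a known XBP1 target, stood at 36.5, 35.9 and 34.4 CPM in replicates 1, 2 and 3 of lncSLCC1 siRNA, against 55.9, 60.4 and 66.9 CPM in control replicates 1, 2 and 3. The groups were far apart (log2 difference -0.84 with an SE of 0.092, edgeR adjusted p = 0.000608). UBXN8 fell by 0.39 and the ubiquitin-conjugating enzyme gene UBE2G2 by 0.24 on the log2 scale, at adjusted p-values by edgeR of 0.0381 and 0.0465. EDEM1 kept its call under every setting tried. UBXN8 and UBE2G2 lost theirs with library totals, with a replicate block and without control replicate 2 or any 1 lncSLCC1 siRNA library. UBE2G2 also lost its call without the low-count filter. The edgeR adjusted p-values of these losses were at most 0.195. The list held 8 lower and 2 higher genes without control replicate 1, and 2 lower without control replicate 2.

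Among relatives of the sensors and factors of their processing, 2 of 24 tested rose and 2 fell, with a median of -0.08. PPP1R15A, which encodes the eIF2 phosphatase subunit GADD34 that ends the PERK signal, fell by 0.57 (SE 0.121, edgeR adjusted p = 0.0152) on the log2 scale, and NFYC, a subunit of the CCAAT-binding factor NF-Y, by 0.30 (SE 0.085, adjusted p = 0.0448). ERN2, the epithelial relative of ERN1, rose by 0.44 (SE 0.112, edgeR adjusted p = 0.0318), and EIF2AK4, which encodes the amino acid sensing eIF2 kinase GCN2, by 0.28 (SE 0.074, adjusted p = 0.036). All 4 lost their calls without control replicate 2 and without any 1 of the lncSLCC1 siRNA libraries, with edgeR adjusted p-values of at most 0.179. NFYC also lost its call with library totals (edgeR adjusted p = 0.0706). With a replicate block, NFYC and EIF2AK4 were not called (edgeR adjusted p = 0.0718 and 0.0639). Without control replicate 1 the list held 3 higher and 6 lower genes, and without control replicate 3 it held 3 higher and 5 lower. Calls over all tested genes also rose in both settings.

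The list of outputs of the PERK and ATF4 branch was, like the others, chosen with earlier results of these data known. Its median was -0.46, its log2 fold changes ran from -1.15 to 0.42, and 6 of 13 tested genes were not called. The other 7 fell, against 7.39% called lower among all tested genes. Those with the smallest p were the transcription factor gene ATF3, at -1.08 (SE 0.118), CHAC1, a glutathione-degrading enzyme gene, at -1.15 (SE 0.171), the asparagine synthetase gene ASNS, at -0.52 (SE 0.084), and DDIT4, an inhibitor of mTOR signalling, at -0.73 (SE 0.117), as log2 fold changes, and their edgeR adjusted p ran from 0.000656 to 0.00489. Without control replicate 2, or without lncSLCC1 siRNA replicate 1, 2 or 3, 4 genes of the list were called lower. Without control replicate 1 the list held 10 lower and 1 higher, and without control replicate 3 it held 9 lower.

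Of genes that bring proteins into the ER, cleave their signal peptides or add oligosaccharides to them, 3 of 25 tested fell, with a median of -0.04. SRPR, which encodes the receptor of the signal recognition particle, stood at 172, 168 and 169 CPM in replicates 1, 2 and 3 of lncSLCC1 siRNA, against 293, 263 and 266 CPM in control replicates 1, 2 and 3, with no overlap (log2 difference -0.76 with an SE of 0.082, edgeR adjusted p = 0.000608). RPN1, an oligosaccharyltransferase subunit gene, fell by 0.51 (SE 0.082, edgeR adjusted p = 0.00472) and SEC61A1, the gene of the translocon pore, by 0.29 (SE 0.078, adjusted p = 0.0372) on the log2 scale. SEC61A1 lost its call with library totals, with a replicate block (edgeR adjusted p = 0.064) and without control replicate 2 or any 1 lncSLCC1 siRNA library. Without control replicate 3, 6 genes of the list were lower.

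**Figure D4:**
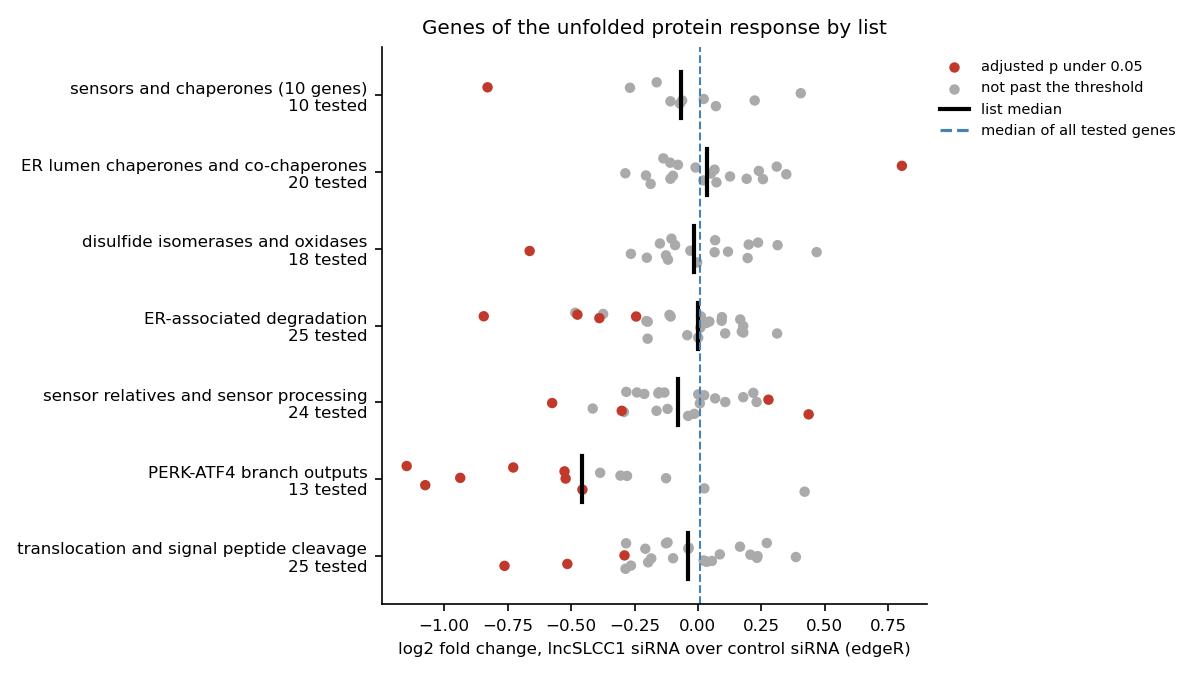
Log2 fold change (horizontal axis, edgeR, lncSLCC1 siRNA over control siRNA) of the 10 sensors and chaperones and of the genes of 6 further lists, each point a gene, red where the adjusted p is under 0.05. Black bars are list medians and the dashed line is the median of all tested genes, 0.01. The PERK and ATF4 outputs have a median of -0.46, and the other medians lie between -0.08 and 0.04.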

How the data were processed

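Per the submitters' processing notes, TopHat2 version 2.0.11 and HTSeq were used with human builds hg19 and GRCh37. For every library the authors deposited a table of raw counts by gene symbol. No annotation release or strand setting is stated, so overlapping and antisense genes may share reads. Summary lines of HTSeq were not used, and held 5.42% to 7.58% (no feature), 8.83% to 10.1% (ambiguous) and 12.8% to 13.8% (not unique) of all counted reads. The ends at 5.42%, 10.1% and 13.8% were those of control replicate 1. The no feature share was 7.09% to 7.58% after lncSLCC1 siRNA and 5.42% to 7.18% with control siRNA.

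CPM was computed from library totals. The test was edgeR 4.0.16 (R 4.3.3) quasi-likelihood, scaled by TMM and filtered by filterByExpr at its defaults, without covariates, and SEs were taken from the fold change and F. The biological coefficient of variation was 10.9%. Alternatives used DESeq2 1.42.0, limma 3.58.1, other scalings and filters, a replicate block, GC content and length offsets (values for 89.4% of tested genes) and each library left out. On simulated counts for this comparison (15034 genes tested), 50 of 50 planted rises and 50 of 50 planted falls of 1 on the log2 scale were recovered, and 25 and 21 of 50 at 0.5. There, 11 unchanged genes were called. Changes were planted only in genes averaging at least 50 reads per library, so recovery at lower counts was not tested. The simulated counts had the same dispersion for every gene and in both groups, so recovery under the wider spread of the real controls was not tested. The RTCB gene was matched through an older symbol.

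The members and lists were chosen with earlier results of these data known. Named were the 10 genes, RP11-400N13.2, from each list the 4 called genes with the smallest p or, with fewer than 2 called, the 2 with the smallest p, and the 5 genes most like HSPA5, except 1 list gene that is not reported here. EPCAM, CDX2 and the copies of HSP90B1 were added for checks, and NUCB1, RAD9A, GYS1 and ZNF17 after their values were seen. CALR, CANX, HYOU1, CRELD2 and PDIA6 were picked from the tested genes with an ERSE or ERSE-II and fall under none of these rules. Windows and promoter sequences are RefSeq's (GRCh38.p14), and untranslated regions are from GENCODE 29.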

Additional observations from a re-analysis of the deposited data

How the results depend on the processing

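PDIA4 kept its direction and its call under all 14 alternatives. Over the 10 genes, leaving out 1 library gave 1 to 2 called lower. Signs turned for HSPA5 (-0.0069) and XBP1 (0.0038) with GC content and length offsets and for ERN1 (0.0071) with library totals, all 3 far from the threshold. Over all tested genes, 984 were higher and 1126 lower, and leaving out 1 library gave 213 to 2112 higher and 244 to 2431 lower, the lower ends without an lncSLCC1 siRNA library and the upper ends without control replicate 1. No low-count filter gave 1600 higher, GC content and length offsets 1969 higher and 2368 lower, and library totals moved the share of higher calls from 46.6% to 63.9%. Over the 6 pathway lists, 3 genes rose and 17 fell. Library totals gave 9 higher and a median of 0.0302 in place of -0.0421, no low-count filter 7 higher, GC content and length offsets 15 higher and 31 lower, and leaving out 1 library 0 to 14 higher and 8 to 31 lower. The cause was not tested.

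Deviations from group means correlated at 0.0942, 0.00135 and -0.0159 between libraries of the same number. The highest value, 0.102, was between lncSLCC1 siRNA replicate 2 and control replicate 3, close to the 0.0942 of replicates 1. Pairing by replicate number cannot be judged from these values, since the lncSLCC1 siRNA libraries differed little from each other. Their chi-square statistic per gene was 1.87 to 1.99, against 17.7 and 31.2 between control replicate 1 and the other controls. With the replicate block 993 genes were higher and 1059 lower, and the log2 fold change of PDIA4 was -0.82 (edgeR adjusted p = 0.000407). Of the pathway list genes named, EIF2AK4, NFYC, SEC61A1, UBXN8 and UBE2G2 were not called with the block (edgeR adjusted p of 0.0591 to 0.0893). Among the 10 genes DNAJB9 had the fewest reads, at 84 to 188 per library.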

Other observations

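Genes with an ERSE or ERSE-II in their promoter window numbered 44, and 29 of them were tested, 5 of which are among the 10 genes described above. Of the 29, GYS1, a glycogen synthase gene, and ZNF17, a zinc-finger gene, were called higher (log2 fold change 0.49 and 0.83) and NUCB1, a calcium-binding protein gene, and RAD9A, a DNA damage checkpoint gene, lower (-0.45 and -0.47), at adjusted p-values by edgeR of 0.0074 to 0.0388. These 4 were named after their values were seen, and 4 of 29 is close to the 13.8% called among all tested genes. The median log2 fold change of the 29 was 0.02, against 0.01 over all tested genes. The group includes CALR, CANX, HYOU1, CRELD2 and PDIA6, of which none passed the test.

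The 5 genes whose log2 CPM most resembled that of HSPA5 over the 6 libraries, out of 11092 genes of at least 5 CPM, were SAMD3, AAGAB, ANO8, TDRD3 and SP110, with Pearson correlations of 0.997 to 0.990. None passed the test (log2 fold changes 0.09 to 0.24, adjusted p-values by edgeR 0.169 to 0.54). The libraries share scaling by their totals, and with 6 points such values are a description only.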
